A study of Homo sapiens and Mus musculus with 213 samples.

Results

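The genes that make, sense and export sterols and fatty acids were followed by RNA-seq in HEK293T cells whose MYC promoter had been edited. The list holds 41 genes, chosen by symbol and sorted by role, of 58336 genes in the deposited tables, and all 41 passed the minimum level, as 20884 genes did. Some enzymes of the same pathways are not in the list and were not analysed here. HEK293T is a line of transformed human embryonic kidney cells that carries the SV40 large T antigen. The WT cells were HEK293T with an unedited MYC promoter. The MUT cells carried point mutations in the guanine runs of the MYC promoter G-quadruplex (G4), a DNA fold of stacked guanine tetrads, so that it could not form. In the SWP cells this G4 motif was exchanged for a different G4-forming motif, taken from the promoter of another gene. Each line had 3 libraries of poly(A) RNA, the labels give no treatment, and the comparisons asked which genes changed with loss or exchange of the G4. The edited cells were grown from homozygous clones, and the labels used here do not tell which clone each library came from, so clone and edit cannot be told apart. The labels mark the libraries of a line as biological replicates (Bio) but do not say that they were separate cultures, so the p-values measure the spread between libraries, which may be technical.

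As background, cholesterol is built from acetyl-CoA through mevalonate and squalene, and fatty acids are built from acetyl-CoA through malonyl-CoA. Transcription of most of these enzymes is driven by the SREBP factors, which are made as membrane proteins, carried to the Golgi by SCAP when sterols are low, and held back in the endoplasmic reticulum by INSIG proteins when sterols are high. The LXR receptors answer to oxidised sterols and raise genes for export, such as the ABC transporters and APOE. At promoters, SREBP binds next to general factors, among them NF-Y, which recognises CCAAT, and Sp1, which recognises GC boxes.

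The promoter stretches of 5 cholesterol enzymes that were higher in both edited lines are printed because of a motif that they share and that did not enter the choice of genes. Each is read on the strand of its gene, from base -170 to base -21 relative to a RefSeq transcription start (GRCh38.p14), and where RefSeq gives several starts the window with most matches was taken. Capitals mark CCAAT or, as ATTGG, the same motif on the opposite strand.
HMGCS1: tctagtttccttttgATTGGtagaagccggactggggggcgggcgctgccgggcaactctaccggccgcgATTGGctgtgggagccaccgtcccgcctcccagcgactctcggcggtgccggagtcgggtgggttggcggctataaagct
IDI1: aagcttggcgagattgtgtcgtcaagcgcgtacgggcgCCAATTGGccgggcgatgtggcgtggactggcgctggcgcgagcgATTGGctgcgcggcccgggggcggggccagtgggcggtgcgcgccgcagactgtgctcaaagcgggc
TM7SF2: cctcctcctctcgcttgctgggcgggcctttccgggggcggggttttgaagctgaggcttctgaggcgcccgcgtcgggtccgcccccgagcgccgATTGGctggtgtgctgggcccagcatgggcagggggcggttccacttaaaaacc
MSMO1: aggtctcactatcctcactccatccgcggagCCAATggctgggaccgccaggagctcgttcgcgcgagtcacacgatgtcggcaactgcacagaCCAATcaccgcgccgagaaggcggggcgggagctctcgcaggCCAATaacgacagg
SC5D: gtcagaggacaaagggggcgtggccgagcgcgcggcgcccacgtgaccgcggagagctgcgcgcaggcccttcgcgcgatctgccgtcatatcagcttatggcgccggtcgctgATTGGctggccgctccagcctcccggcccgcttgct
These stretches lie at chr5:43313433-43313582 on the minus strand, chr10:1048907-1049056 on the minus strand, chr11:65111702-65111851 on the plus strand, chr4:165327499-165327648 on the plus strand and chr11:121292601-121292750 on the plus strand. Windows from 250 bases before to 50 bases after the start were found for 38 of the 41 genes. CCAAT on either strand was present in at least 1 window of 13 of 15 cholesterol enzymes, 5 of 9 fatty acid genes and 7 of 14 other members, against 42.7% of the 12244 tested genes with a window. In the window listed at the top for each gene it was in 12 of the 15 enzymes, against 36.4%. Enzymes not called in either line against WT held it too. NSDHL had 5 matches, MVD, FDPS and EBP had 3 each and LSS had 1, while PMVK and CYP51A1 had none. TM7SF2 and SC5D, which rose in both lines, had 1 each. Whether the motif goes with the rise was not tested. The GC box GGGCGG was in 37 of the 38 genes, against 76.3% of those tested genes. The E-box CACGTG, a sequence that MYC can bind, was in 5 of the 38 genes (LSS, SC5D, SCAP, INSIG1 and ABCA1), against 12.3%. The strict sterol response element TCACNCCAC was found in 1 gene, SREBF2, against 1.39% of the tested genes. Its stretch, from base -170 to base -71 at chr22:41832935-41833034 on the plus strand, has the match in capitals.
SREBF2: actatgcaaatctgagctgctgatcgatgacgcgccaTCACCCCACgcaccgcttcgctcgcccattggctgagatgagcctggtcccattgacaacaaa
These are matches of letters, and a window without a match says only that the letters are absent there.

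MYC itself, the gene whose promoter was edited, had 20020.3, 28396 and 21580.1 normalized counts in WT, 10693, 11176 and 12399.8 in MUT and 14480.1, 24743 and 25245 in SWP. A normalized count is a read count divided by a size factor of its library. MUT lay below WT without overlap (log2 fold change -1.02 ± 0.19 SE, adjusted p = 0.00182) and SWP overlapped WT (-0.15 ± 0.19, adjusted p = 0.712, both limma). This level does not by itself check the genotype. Gene counts summed to 65024354 to 98497026 reads per library. The column headers of the WT libraries carry an SLX tag that those of MUT and SWP lack. What the tag stands for is not given in the sources used here, so a batch that it may mark and the edit cannot be told apart. All 7 genes typical of HEK293T were above 10 normalized counts in each line, of 8 adult kidney segment genes only LRP2 was, and the summed level of 7 hepatocyte genes was 10.3 to 27.3 per library. For 7 macrophage genes the sum was 11.6 to 17.4 in WT, 28.3 to 38.9 in MUT and 14.9 to 26.4 in SWP, and for 5 adipocyte genes 91.2 to 99.2, 41.9 to 72.9 and 64.6 to 78.7, with PLIN1 as the major part.

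Fatty acid synthesis genes were the most abundant members. Levels were compared between genes as normalized counts per kb of merged exon. SCD, the desaturase that makes monounsaturated fatty acids, stood at 18102 per kb in WT, ACLY, which makes cytosolic acetyl-CoA, at 12706, and FASN, the fatty acid synthase, at 8513. The highest cholesterol enzymes were EBP (4436) and FDPS (3699), and the lowest was HSD17B7 (171). ABCG1 (24) and ABCA1 (16.2), the sterol exporters, were at the bottom of the order in WT. The 41 genes held 0.559 to 0.698% of the normalized counts of a library, and the 10 fatty acid and glycerolipid genes made up 0.306 to 0.411%.

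**Figure D1:**
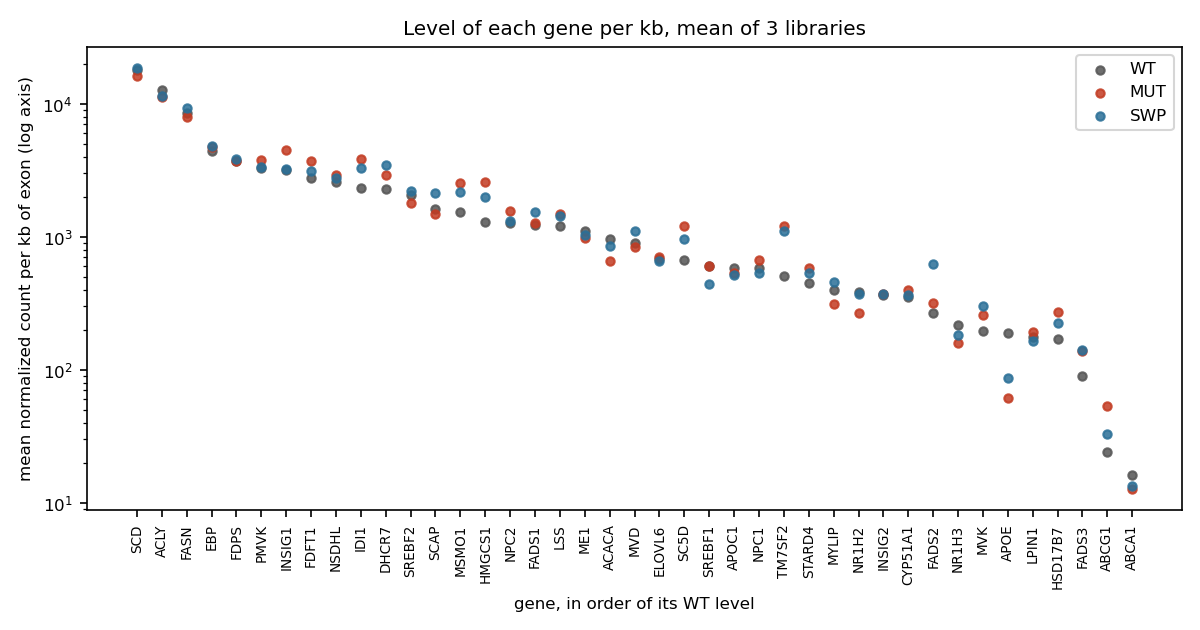
Mean normalized count per kb of exon (log axis, 3 libraries per line) of each of the 41 genes, ordered by the WT level, with WT grey, MUT red and SWP blue. The points of a gene lie close together compared with the range over genes, and TM7SF2, FADS2, APOE and ABCG1 show the widest gaps between lines.

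In MUT against WT, 7 of the 41 genes rose and 3 fell, where a call needs an adjusted p below 0.05 and a log2 fold change beyond 0.5 (limma over all 20884 genes). Of all genes tested, 11.3% rose and 10.1% fell, so the shares of the whole list were of the size of the background. The calls were unevenly placed: 6 of 16 cholesterol synthesis enzymes rose and none fell, with a median log2 fold change of 0.38, while the median over all genes was -0.0034. Members and lists were chosen with earlier results of these data known, so this placement is a description and not independent support. In SWP against WT, 9 of 41 rose and 1 fell, beside 2.15% and 2.98% of all genes. Of the 16 cholesterol enzymes 7 rose, with a median log2 fold change of 0.35 beside -0.06 over all genes. That count of 7 went to 3 (MVK, TM7SF2 and DHCR7) without WT replicate 2 and likewise without WT replicate 3, and to 4 without SWP replicate 2 or without the mean-variance trend. None of these 16 enzymes was called lower against WT in either line, by limma, edgeR or DESeq2, and none was lower at an unadjusted p below 0.05. This does not extend to all related genes. Of 7 other genes of sterol synthesis and SREBP processing, 1 was higher and 3 were lower in MUT at an unadjusted p below 0.05. The share of all genes below that unadjusted p is not given, so these and later counts at it have no background beside them. Both comparisons use the same 3 WT libraries, so the values of a gene in them are not independent. Without WT replicate 3 the count of members higher in SWP went from 9 to 5, and without MUT replicate 2 the count lower in MUT went from 3 to 1. With libraries scaled to equal totals, higher calls made up 64.2% in place of 52.8% of all calls in MUT against WT, and the members counted were 10 higher and 1 lower.

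**Figure D2:**
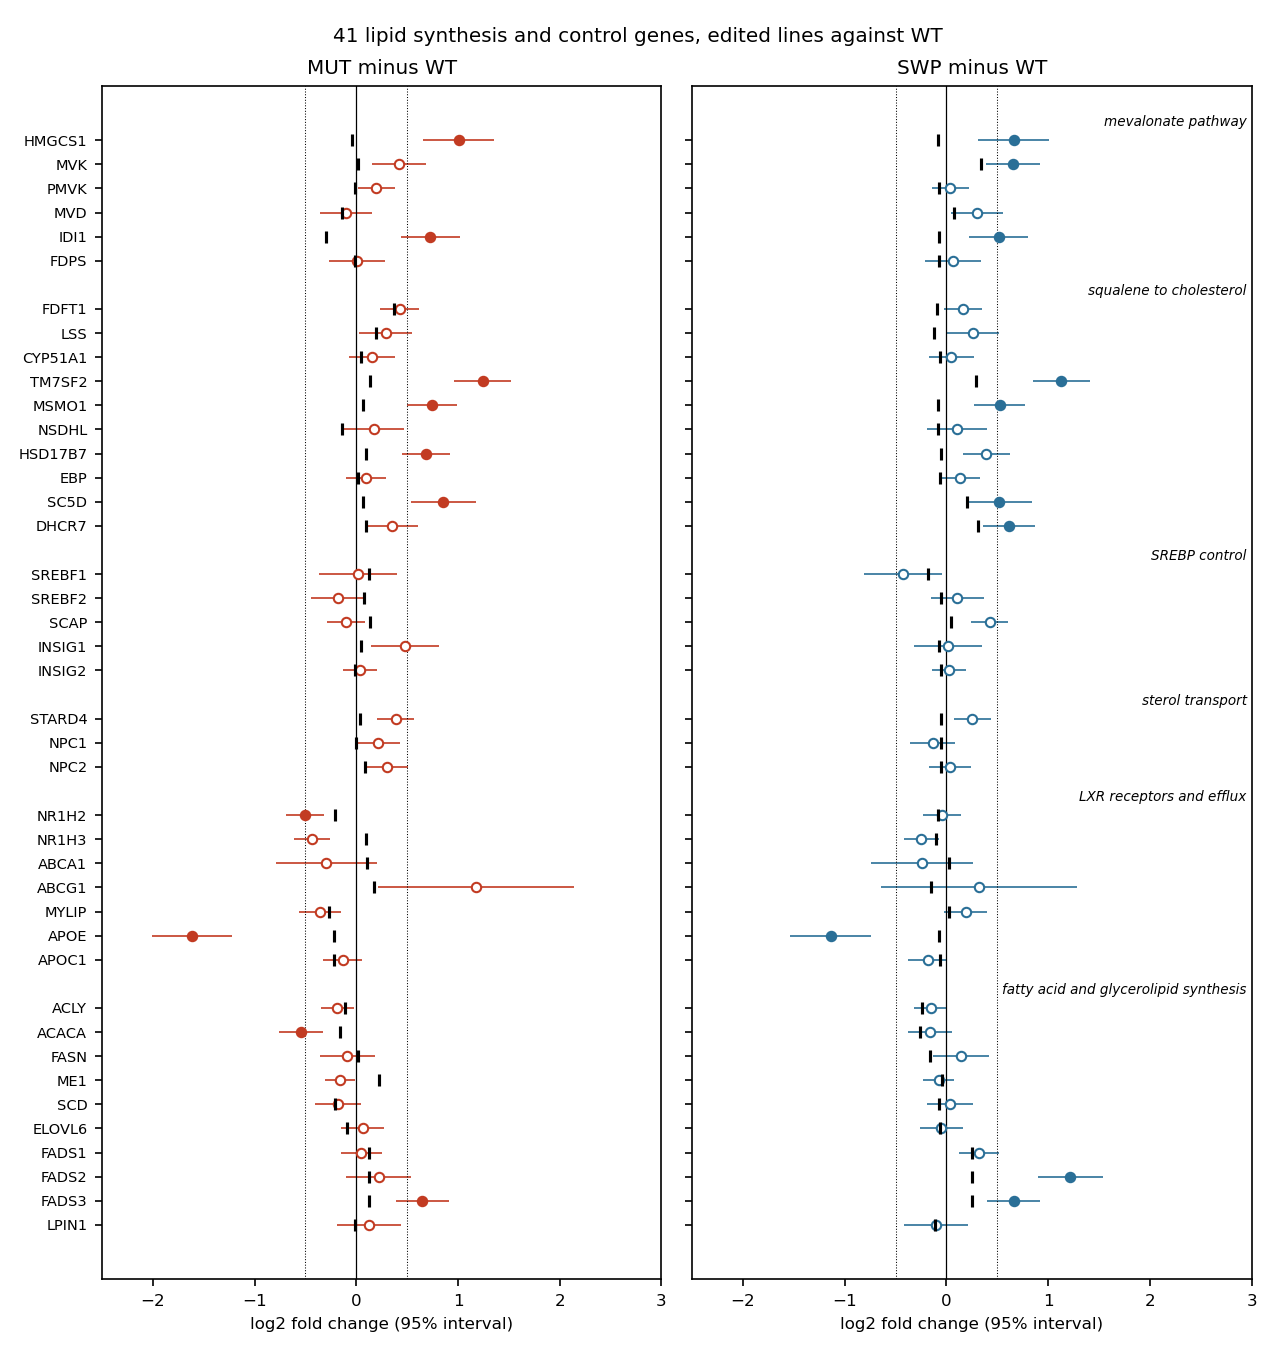
Log2 fold change against WT of the 41 genes in MUT (left) and SWP (right), with 95% intervals from limma, grouped by role; filled points passed the test, dotted lines mark 0.5 in each direction, and the black tick is the median of other tested genes within 5 Mb. Filled points to the right of 0 lie mostly among the cholesterol enzymes, and in SWP several of these have neighbours shifted to the right too.

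Of the 6 mevalonate pathway genes, HMGCS1 and IDI1 rose in both edited lines. HMGCS1, the synthase that forms HMG-CoA, had 10713, 6644 and 8317 normalized counts in WT, 13671, 19036 and 18480.4 in MUT and 13189, 13072 and 13542 in SWP. Every edited library was above every WT library, and WT replicate 2 was the lowest of all. The log2 fold change was 1.01 ± 0.16 (SE) in MUT (adjusted p = 0.000568, limma) and 0.66 ± 0.16 in SWP (adjusted p = 0.0236). IDI1, the isomerase that readies isoprene units for joining, had 11257, 8150.2 and 10691 in WT, 13664, 18564 and 17567 in MUT and 13494, 14739 and 14292 in SWP, again without overlap (0.73 ± 0.13 in MUT, adjusted p = 0.00134, and 0.51 ± 0.13 in SWP, adjusted p = 0.0316). The SWP calls of both genes were weak. Leaving out WT replicate 2, WT replicate 3, SWP replicate 2 or SWP replicate 3 ended each of them, as did a fit without the mean-variance trend, with log2 fold changes of 0.49 to 0.67 for HMGCS1 and 0.37 to 0.56 for IDI1.

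MVK, the kinase that phosphorylates mevalonate, had 1855, 1488 and 1925 in WT, 1992, 2400.2 and 2651 in MUT and 2689, 2617 and 2937 in SWP. It rose in SWP (0.65 ± 0.12, adjusted p = 0.00572), and its value in MUT was 0.42 ± 0.12 (adjusted p = 0.0181), under the fold threshold but past it without MUT replicate 1 (0.53). In SWP the 98 other tested genes within 5 Mb of MVK had a median of 0.33, and MMAB, which overlaps the start of MVK by 225 exon bases on the opposite strand, had 0.63. The part of the neighbourhood in the change was not tested. PMVK, MVD and FDPS, which carry out the following steps, were not called, with intervals in MUT of 0.02 to 0.38, -0.36 to 0.16 and -0.27 to 0.28 and in SWP of -0.15 to 0.22, 0.04 to 0.56 and -0.21 to 0.34.

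Between squalene and cholesterol, TM7SF2 changed most. TM7SF2, a sterol reductase of the nuclear envelope and endoplasmic reticulum, lies at chr11:65111845-65116384 (GENCODE, GRCh38) and had 1526, 1762 and 1895 normalized counts in WT, 3344, 4455 and 4532 in MUT and 3459, 3686 and 4194 in SWP. The lowest edited library held far more than the highest WT library, and the means were 2.38 and 2.19 times that of WT. The log2 fold change was 1.24 ± 0.13 (SE) in MUT (adjusted p = 2.95e-05, limma) and 1.13 ± 0.13 in SWP (adjusted p = 0.000231), and the call held under all 20 refits of the fit in each comparison. The 244 tested genes within 5 Mb had medians of 0.13 and 0.29, which left 1.11 and 0.84 for TM7SF2. VPS51, which overlaps it by 18 exon bases on the same strand, had -0.36 in MUT and 0.29 in SWP.

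MSMO1, the methyl sterol oxidase, had 5236, 3631 and 4216 in WT, 6656, 7517 and 7469.7 in MUT and 6243, 6278 and 6054 in SWP. It rose by 0.74 ± 0.11 in MUT (adjusted p = 0.000432) and 0.52 ± 0.11 in SWP (adjusted p = 0.0132), and the SWP call was lost without WT replicate 2 (0.40) or WT replicate 3 (0.51). SC5D, the desaturase near the end of the pathway, had 7965, 6204 and 6074 in WT, 13025, 12090.4 and 11307 in MUT and 12123, 9063 and 8036 in SWP. The MUT libraries stood clear of WT (0.86 ± 0.14, adjusted p = 0.000847), while SWP replicate 3 nearly reached WT replicate 1 (0.52 ± 0.14, adjusted p = 0.0441). That SWP call failed in 10 of 20 refits, with values from 0.35 without SWP replicate 1 to 0.65. HSD17B7, the keto sterol reductase, had 816, 728 and 909 in WT, 1171, 1360.0 and 1411 in MUT and 991, 1083 and 1137 in SWP, 3 ranges that did not overlap. It rose in MUT (0.68 ± 0.11, adjusted p = 0.000499) and was 0.39 ± 0.11 in SWP (adjusted p = 0.0396), below the fold threshold.

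DHCR7, the reductase that yields cholesterol or its direct precursor, had 17174, 13517 and 16166 in WT, 16803, 20412 and 22525 in MUT and 24052, 22034 and 25586 in SWP. It rose in SWP (0.62 ± 0.12, adjusted p = 0.00642), where its 133 neighbours had a median of 0.31, and in MUT it was 0.35 ± 0.12 (adjusted p = 0.0353). FDFT1, the squalene synthase, had 14223, 12927 and 15292 in WT, 17112, 19622 and 20305 in MUT and 14884, 15751 and 16804 in SWP. Its MUT libraries lay above the rest (0.43 ± 0.09, adjusted p = 0.00265, under the fold threshold) and the median of its 48 neighbours there was 0.38. LSS, CYP51A1, NSDHL and EBP were not called in any comparison, with log2 fold changes of 0.29, 0.16, 0.17 and 0.09 in MUT and 0.26, 0.05, 0.11 and 0.14 in SWP.

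**Figure D3:**
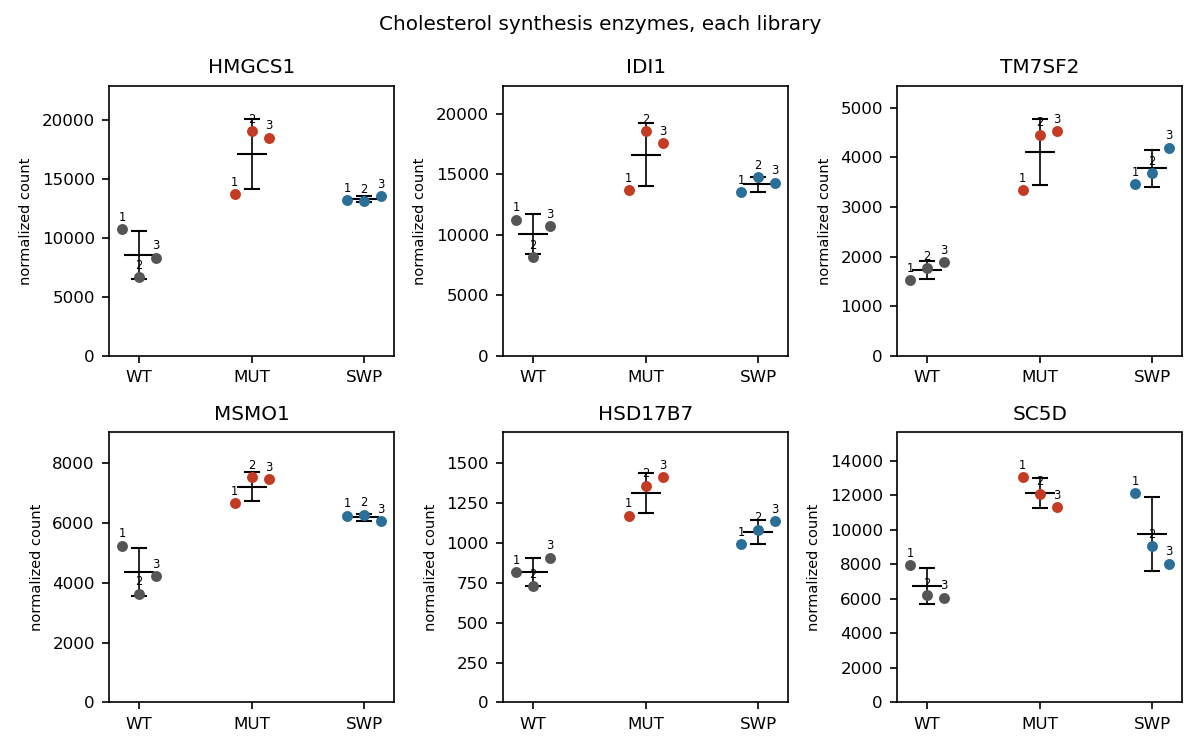
Normalized counts of 6 cholesterol synthesis enzymes in each library (points, numbered by replicate), with the mean and SD of each line (n = 3). In every panel all edited libraries lie above all WT libraries, by little for SWP replicate 3 of SC5D and SWP replicate 1 of HSD17B7.

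Of the genes that control SREBP, none of SREBF1, SREBF2, SCAP, INSIG1 and INSIG2 was called by limma against WT, where 1 was higher at an unadjusted p below 0.05 in MUT, and 1 higher and 1 lower in SWP. edgeR and DESeq2 each called 1 of them higher in MUT and none in SWP. That gene was INSIG1, itself a well-known SREBP target, with 12855, 10752 and 11479.8 normalized counts in WT, 12585, 18305 and 18628 in MUT and 9807, 12543 and 13277 in SWP. MUT replicate 1 lay inside the WT range and the other two MUT libraries far above it (0.48 ± 0.15, adjusted p = 0.0292 by limma; 0.66 without MUT replicate 1 and 0.55 without WT replicate 1, both calls). SREBF1, whose products favour lipogenic genes, had 3741, 5699.9 and 5481 in WT, 4067, 5145 and 5790.3 in MUT and 3225, 3426 and 4330.3 in SWP, so that the SWP range overlapped that of WT (-0.43 ± 0.17, adjusted p = 0.162; -0.62 and called without WT replicate 1). SREBF2, the factor most tied to cholesterol genes, had intervals of -0.44 to 0.09 in MUT and -0.16 to 0.37 in SWP. SCAP had 9260.3, 11414 and 9653 in WT, 9518, 9094 and 9535 in MUT and 12781, 13323 and 14499 in SWP, highest in SWP without overlap (0.42 ± 0.08 against WT, adjusted p = 0.00819, 0.52 and called without WT replicate 2). INSIG2 was level, within -0.13 to 0.21 in MUT and -0.15 to 0.19 in SWP.

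Of the sterol transport genes STARD4, NPC1 and NPC2 none was called, by limma, edgeR or DESeq2, with 2 higher in MUT and 1 in SWP at an unadjusted p below 0.05. STARD4, a cytosolic sterol carrier, had 2479.6, 2596 and 2559 in WT, 3209, 3601 and 3184 in MUT and 2746, 3321 and 3055 in SWP, so that both edited lines lay above WT by less than the fold threshold (0.39 ± 0.08 in MUT, adjusted p = 0.00367, and 0.25 ± 0.08 in SWP, adjusted p = 0.0815). NPC1 and NPC2, which move cholesterol out of lysosomes, had 0.21 and 0.30 in MUT and -0.14 and 0.03 in SWP.

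Among the 7 LXR receptor and efflux genes, APOE fell in both edited lines. APOE, the lipoprotein component that takes up exported cholesterol, lies at chr19:44905791-44909393 and had 447, 413 and 358 normalized counts in WT, 139, 132 and 124 in MUT and 134, 219 and 209 in SWP. The highest edited library held fewer counts than the lowest WT library, and the means were 0.324 and 0.461 times that of WT (-1.61 ± 0.18, adjusted p = 5.42e-05, and -1.14 ± 0.18, adjusted p = 0.0023). APOC1, the next gene of the cluster, which codes for a small apolipoprotein, had 714, 658 and 704 in WT, 579.6, 651 and 666 in MUT and 600.3, 619 and 605 in SWP, with intervals of -0.32 to 0.06 and -0.38 to 0.01. The 272 tested genes around APOE had medians of -0.22 in MUT and -0.07 in SWP. At 124 to 447 normalized counts APOE was a minor transcript here, and of the 14 macrophage and hepatocyte markers only CD14 and APOA1 had a line mean above 10.

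NR1H2, the widely expressed LXR, had 1891, 2023 and 2205 in WT, 1363, 1430.0 and 1529 in MUT and 1908, 1904 and 2137 in SWP. Its MUT range lay below the others, and the log2 fold change of -0.50 ± 0.08 (adjusted p = 0.000867) was at the fold threshold, so that 8 of 20 refits ended the call (weakest value -0.43, with libraries scaled to equal totals), among them edgeR, DESeq2 and those without WT replicate 3, MUT replicate 1 or MUT replicate 2. NAPSA overlaps 22.1% of the exon bases of NR1H2 on the opposite strand. It had a mean of 80.6 normalized counts and log2 fold changes of -0.65 in MUT and -0.19 in SWP. The part of this overlap in the change of NR1H2 was not tested. NR1H3, the LXR of liver and macrophages, had 936, 987 and 1017 in WT, 702, 738 and 732 in MUT and 781, 848 and 846 in SWP, 3 ranges without overlap, WT highest and MUT lowest (-0.44 ± 0.08 in MUT, adjusted p = 0.00133, under the fold threshold, and -0.25 ± 0.08 in SWP, adjusted p = 0.0741). ABCG1 had 91.2, 164 and 186 in WT, 242, 359.7 and 376 in MUT and 75.6, 249 and 286 in SWP. Its MUT libraries were above WT, and replicate 1 was the lowest of each line (1.18 ± 0.44, adjusted p = 0.0532, not called, but called in 7 of 20 refits, with an adjusted p of 0.037 by edgeR). ABCA1 was low throughout, within 117 to 245 normalized counts, and MYLIP, the ubiquitin ligase that removes lipoprotein receptors, had 1111, 1298 and 1274 in WT, 868, 995 and 1008 in MUT and 1299, 1478 and 1415 in SWP (-0.36 ± 0.09 in MUT, adjusted p = 0.0117, and 0.19 ± 0.09 in SWP, adjusted p = 0.261).

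**Figure D4:**
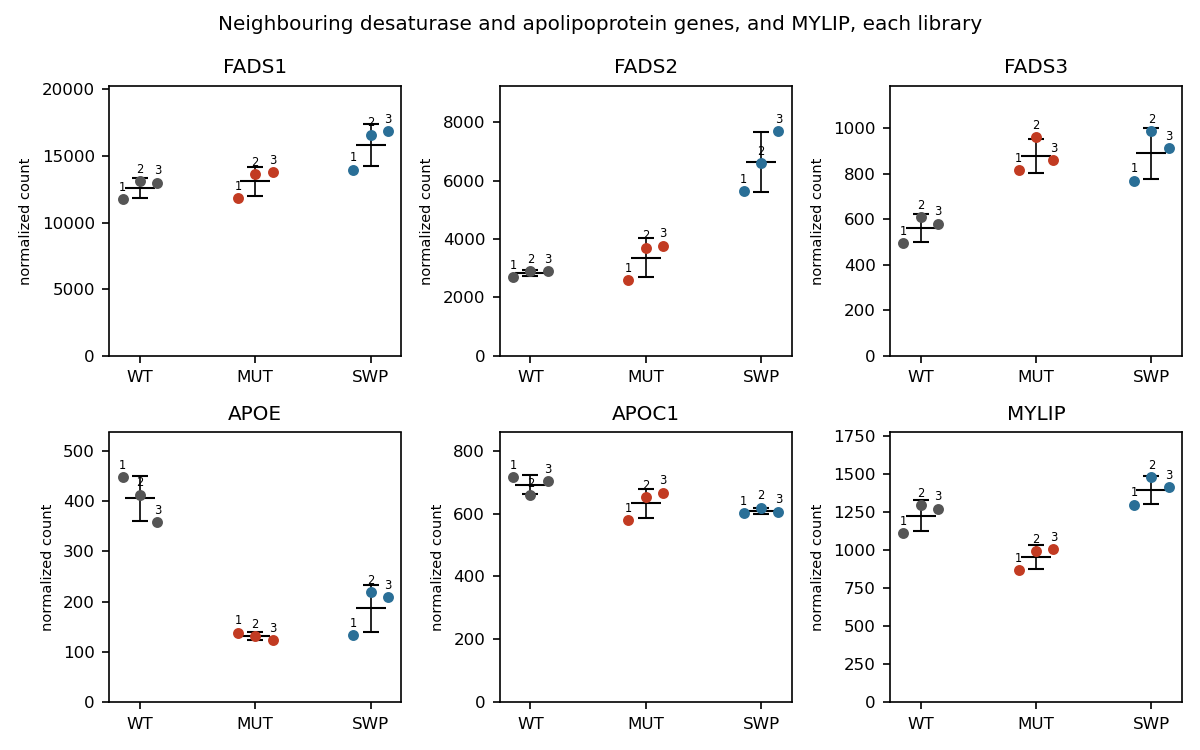
Normalized counts in each library (points, numbered by replicate) with the mean and SD of each line (n = 3) for the clustered genes FADS1, FADS2 and FADS3, the adjacent genes APOE and APOC1, and MYLIP. FADS2 is high in SWP only, FADS3 is high in both edited lines, and APOE is low in both while APOC1 is nearly level.

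The abundant fatty acid enzymes were close to level across lines. SCD had 96043, 96014 and 92774 in WT, 70800.1, 86875 and 95732 in MUT and 93356, 94031 and 105028 in SWP, FASN 94106, 70636 and 73317, 68299.6, 71026 and 83847 and 91528, 75946 and 94175, with overlapping ranges. Their intervals were -0.40 to 0.04 and -0.36 to 0.19 in MUT and -0.19 to 0.26 and -0.13 to 0.42 in SWP, so that changes as large as that of TM7SF2 lie outside them. ACLY was below WT in every edited library, by little (-0.19 ± 0.07 in MUT, adjusted p = 0.0673, and -0.16 ± 0.07 in SWP, adjusted p = 0.229). ACACA, the carboxylase that makes malonyl-CoA for synthesis, had 13688, 12929.6 and 10743 in WT, 8282, 7919.9 and 9434 in MUT and 11507, 10349 and 11322 in SWP. It fell in MUT (-0.54 ± 0.10, adjusted p = 0.00135), a call lost without WT replicate 1 (-0.47) or MUT replicate 2 (-0.49) and with libraries scaled to equal totals (-0.47). ME1, ELOVL6 and LPIN1, which supply NADPH, lengthen saturated chains and make diacylglycerol, were not called, with log2 fold changes between -0.16 and 0.13 in MUT and between -0.10 and -0.05 in SWP.

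FADS1, FADS2 and FADS3 lie in a cluster on chromosome 11 (chr11:61799627-61829318, chr11:61792980-61867354 and chr11:61873519-61892051) and differed from each other. As annotated, FADS1 lies within the span of FADS2, on the opposite strand. FADS2, the desaturase at the entry to polyunsaturated fatty acid synthesis, had 2705, 2904 and 2901 normalized counts in WT, 2582, 3703 and 3769.9 in MUT and 5645, 6591 and 7699 in SWP. Only the SWP libraries stood apart, at 2.34 times WT (1.22 ± 0.14, adjusted p = 0.00033), and MUT overlapped WT (0.22 ± 0.14, adjusted p = 0.253). FADS1, the desaturase of a later step, had 11764, 13117 and 12992 in WT, 11830.4, 13656 and 13778 in MUT and 13977, 16603 and 16872 in SWP (0.32 ± 0.09 in SWP, adjusted p = 0.0458, under the fold threshold). FADS3, which acts on sphingoid bases, had 495, 609 and 581 in WT, 816, 960.5 and 861 in MUT and 769.9, 988 and 912 in SWP, and rose in both (0.65 ± 0.12, adjusted p = 0.00142, and 0.66 ± 0.12, adjusted p = 0.0049). The tested genes within 5 Mb of FADS2, 227 in number, had medians of 0.12 in MUT and 0.25 in SWP, which left 0.97 for FADS2, 0.41 for FADS3 and 0.07 for FADS1 in SWP. FADS1 and FADS2 share 490 exon bases on opposite strands, and whether the counting used strand is not given in the sources used here. FEN1, with a mean of 16850 normalized counts, overlaps FADS2 by 49 exon bases on the same strand. It had log2 fold changes of 0.58 in MUT and 0.51 in SWP.

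MUT and SWP were also set against each other, in the test of the difference between the edited lines. FADS2, SCAP and MYLIP were lower in MUT, and no member was called higher, beside 8.31% of all genes lower and 12.3% higher. At an unadjusted p below 0.05, 7 members were higher and 11 lower in MUT, and edgeR and DESeq2 called none higher and 4 lower. The share of all genes below that unadjusted p is not given, and the shares above belong to the stricter call, so these 2 counts have no background. For FADS2 the difference was -0.997 ± 0.14 (adjusted p = 0.000303), for SCAP -0.53 ± 0.08 (adjusted p = 0.000556, and -0.48 with no call without SWP replicate 3) and for MYLIP -0.55 ± 0.09 (adjusted p = 0.00099, and -0.48 with no call without MUT replicate 1). None of the 16 cholesterol enzymes was called by limma, edgeR or DESeq2, with 3 higher and 2 lower in MUT at an unadjusted p below 0.05. The differences of TM7SF2 (-0.17 to 0.39), HMGCS1 (0.00 to 0.70) and SC5D (0.02 to 0.65) are given as 95% intervals, which still allow a moderate difference. APOE was -0.48 (adjusted p = 0.0569; called by edgeR and DESeq2 at -0.55, and at -0.70 without SWP replicate 1). With the replicate number as a block, ABCG1 was called higher in MUT than in SWP (0.86, adjusted p = 0.00386, beside 0.145 without the block). Without MUT replicate 1 or without SWP replicate 3, 2 members were called higher in MUT (SREBF1 and INSIG1), and without SWP replicate 1 it was 1 (SC5D).

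Position on the chromosome moved with several of these values. Of all 20884 genes, the median log2 fold change was -0.0034 in MUT and -0.06 in SWP. In SWP, the neighbours of all 6 members on the long arm of chromosome 11 were shifted upward: the medians were 0.25 at the FADS genes, 0.29 at TM7SF2, 0.31 at DHCR7 and 0.20 at SC5D, while NR1H3 on the short arm had -0.10. Set against these neighbours, DHCR7 was 0.31, SC5D 0.32 and MVK 0.32 above them, all under the fold threshold, whereas TM7SF2 (0.84), HMGCS1 (0.74), IDI1 (0.58) and MSMO1 (0.61) stayed beyond it. In MUT the neighbours of HMGCS1, IDI1, TM7SF2, MSMO1, HSD17B7 and SC5D had medians of -0.04, -0.30, 0.13, 0.06, 0.10 and 0.07, and each of these genes exceeded its neighbours by 0.59 or more, while FADS3 did so by 0.52. Of the 3 genes that fell in MUT, APOE stayed -1.40 from its neighbours, whereas NR1H2 (-0.50, neighbours -0.20) was left with -0.30 and ACACA (-0.54, neighbours -0.16) with -0.38, both under the fold threshold. In MUT against SWP, MYLIP (-0.55, neighbours -0.23) was left with -0.31, under the fold threshold, beside -0.87 for FADS2 and -0.62 for SCAP. These are differences of log2 fold changes with no test, and DNA copy number was not measured here.

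Ratios of related members within a library, which do not depend on the scaling of libraries, were compared for 8 pairs. With 3 libraries against 3 the exact two-sided permutation test cannot give a p below 0.1, and adjusted over the 24 comparisons the lowest value was 0.24, so none could pass. The log2 ratio of FADS1 to FADS2 was 2.15 ± 0.03 in WT, 1.98 ± 0.18 in MUT and 1.26 ± 0.11 in SWP (SD, n = 3), below both others in SWP (exact p = 0.1 each). The ratio of APOE to APOC1 was -0.77 ± 0.17 in WT, -2.26 ± 0.18 in MUT and -1.73 ± 0.37 in SWP, lower in every edited library (exact p = 0.1 each). SREBF1 to SREBF2 was -1.74 ± 0.23 in WT, -1.55 ± 0.12 in MUT and -2.28 ± 0.12 in SWP, with SWP apart from both (exact p = 0.1 each). FASN to SCD, the pair of abundant enzymes, was -0.27 ± 0.22, -0.18 ± 0.12 and -0.16 ± 0.14, and overlapped in all comparisons. NPC1 to NPC2 and INSIG1 to INSIG2 overlapped in all comparisons too. ABCA1 to ABCG1 was 0.33 ± 0.34 in WT, -1.14 ± 0.22 in MUT and -0.22 ± 0.74 in SWP, and MUT lay below both others without overlap (exact p = 0.1 each). NR1H3 to NR1H2 was -1.06 ± 0.05 in WT, -0.99 ± 0.06 in MUT and -1.26 ± 0.09 in SWP, lowest in SWP without overlap (exact p = 0.1 each).

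Libraries of the same line also differed in these genes. As the median over the 16 cholesterol enzymes of the deviation from their own line's mean (log2), WT replicate 2 was at -0.16 with 15 of 16 enzymes below the mean, and MUT replicate 1 at -0.19 with 15 of 16 below. MUT replicates 2 and 3 were at 0.06 and 0.11, and WT replicate 3 at 0.11. The median over all tested genes was within 0.01 of 0 in every library. In WT replicate 2 the SREBP control genes went the other way, at 0.18, and the 3 transport genes at 0.06. In MUT replicate 1 all 6 role groups were below their means. For NSDHL, a dehydrogenase of the demethylation steps with 5991, 4063 and 5554 normalized counts in WT, this spread exceeded the difference between lines (0.17 in MUT and 0.11 in SWP).

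**Figure D5:**
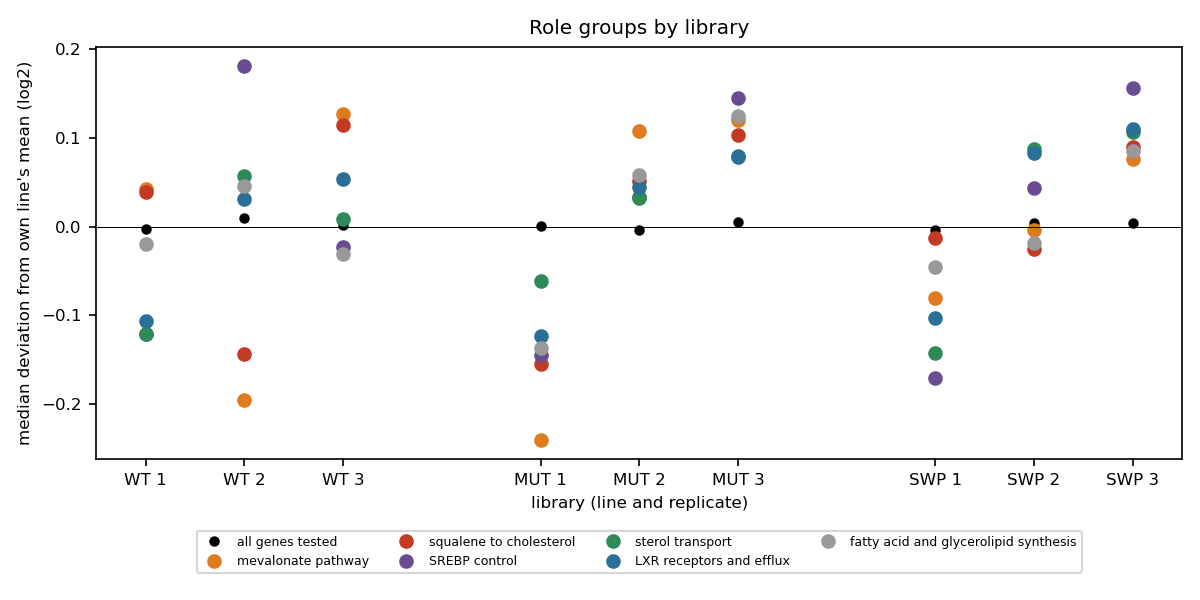
Median deviation (log2) of each role group from the mean of its own line, for each of the 9 libraries; black points are the median over all tested genes. The mevalonate and squalene to cholesterol groups are lowest in WT replicate 2 and MUT replicate 1, where the black points stay near 0.

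Of 48 other genes of lipid synthesis, storage and oxidation, 40 were tested. In MUT against WT 5 rose and 5 fell, in SWP against WT 1 rose and 2 fell, and in MUT against SWP 5 were higher and 6 lower. Of all genes 11.3% and 10.1%, 2.15% and 2.98%, and 12.3% and 8.31% were called in the same comparisons and directions, so most of these shares were of the size of the background. ACSL6, which activates long-chain fatty acids, moved in opposite directions, with 288, 330.0 and 301 normalized counts in WT, 503, 507 and 498 in MUT and 155, 190.2 and 183 in SWP, 3 ranges that stood apart (1.51 ± 0.11 in MUT against SWP, adjusted p = 2.46e-06). ELOVL7, an elongase of saturated chains, was higher in MUT (0.85 ± 0.09, adjusted p = 3.67e-05), and HACD1, one of several dehydratases of the elongation cycle, was lower (-0.80 ± 0.10, adjusted p = 0.000167). GRAMD1C, a carrier of sterol from the plasma membrane, was lower in MUT (-0.88 ± 0.19, adjusted p = 0.00437) and in SWP (-0.71 ± 0.19, adjusted p = 0.0397), and SCD5 was higher in SWP (0.54, adjusted p = 0.0221). CYP46A1, the cholesterol hydroxylase of neurons, rose in MUT (1.32 ± 0.31, adjusted p = 0.00649) from a mean of 15.8 ± 2.51 to 42.4 ± 15.6 (SD, n = 3). Against SWP, ACACB (-0.86) and ELOVL2 (-0.67) were lower in MUT. None of the 7 other genes of sterol synthesis and SREBP processing was called against WT in either line by limma, edgeR or DESeq2, with 1 higher and 3 lower in MUT and 1 higher in SWP at an unadjusted p below 0.05. In MUT against SWP 1 of the 7 was lower, LBR, a sterol reductase of the inner nuclear membrane related to TM7SF2, which is named after its values were seen (-0.54 ± 0.07, adjusted p = 8.89e-05). LBR had 35681, 33639 and 32411 in WT, 25509.5, 26789.9 and 25233 in MUT and 39552, 37074 and 35869.5 in SWP, lowest in MUT (-0.39 ± 0.07 against WT, adjusted p = 0.000775, under the fold threshold). TM7SF2 rose in both edited lines, while LBR in SWP was 0.15 ± 0.07 against WT (adjusted p = 0.202, limma).

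For 6 members the counts could be shared with pseudogenes. Of the reads on CYP51A1 and its 3 listed pseudogenes, 67.4% were counted on the pseudogenes, so that its level is uncertain, and the sum of all was 4544 ± 234 in WT, 5238 ± 470 in MUT and 4536 ± 255 in SWP (SD, n = 3). For HSD17B7 the share was 19.8%, for FDPS 11.8%, for SCD 8.75%, for IDI1 1.97% and for APOC1 1.91%. With pseudogenes added, the log2 ratio of means to WT was 0.73 in MUT and 0.50 in SWP for IDI1, and 0.63 and 0.38 for HSD17B7.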

How the data were processed

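RNA-seq of WT, MUT and SWP HEK293T cells (3 libraries each) was analysed, 9 of the 213 samples listed. The authors made poly(A), strand-specific libraries, mapped the reads to hg38 with BWA, a mapper that is not splice-aware, and took out duplicate reads. Reads were counted per gene, and each count was divided by a DESeq2 size factor. The authors name GENCODE 42 as the annotation, and whether the deposited counts used that release was not checked. The counting tool and strand setting are not given in the sources used here. The deposited values are thus a signal that is never negative: 100% of them were whole reads times 1 factor per library, and these recovered reads served for edgeR and DESeq2. Identifiers were named, and exon lengths taken, from GENCODE 44 (GRCh38). Promoter sequences are those of RefSeq.

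Genes with a mean of at least 10 normalized counts were tested with limma 3.58.1 (R 4.3.3) on log2(value + 1), 1 fit over the 9 libraries with a mean-variance trend and Benjamini-Hochberg adjustment, so a fold change of a low gene is understated. Errors are SE for fold changes. edgeR 4.0.16, DESeq2 1.42.0, other pseudocounts, filters, scalings and thresholds, and fits leaving out each library, were alternatives. In simulated counts for MUT against WT over 20884 genes, limma recovered 39 of 67, 54 of 67 and 66 of 66 genes changed by 0.5, 1 and 2 (log2). Recovery needed an adjusted p below 0.05 and the right sign but no fold threshold, so it is not the share that would be called. Of the unchanged genes 9 were called with the fold threshold. Far fewer genes were changed there than were called in the real data, so the adjustment of p differs. Same-numbered libraries deviated together in SWP and WT (correlations 0.555, 0.403 and 0.102) and in MUT and SWP (0.333, 0.241 and 0.232), and less in MUT and WT (0.328, 0.146 and 0.049). Values for other-numbered libraries ran from -0.477 (SWP replicate 1 and WT replicate 2) to 0.263 (SWP replicate 3 and WT replicate 2). MUT replicate 2 and WT replicate 3 had 0.154. All same-numbered values were positive, but the labels do not say that the numbers pair libraries, so this is not settled. The main fit and the exact tests used no pairing, and a fit with the replicate number as a block was an alternative. All members and the 8 ratios are named, the promoters printed are those of cholesterol enzymes called higher in both edited lines, and of other genes the 5 called ones with the largest change per comparison. Members and lists were chosen with earlier results of these data known. Replicates differed beyond sampling noise (chi-square per degree of freedom of 8.32 or more), so none was counted as a repeat. The lowest read count of a member in a library was 66 (ABCG1).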

Additional observations from a re-analysis of the deposited data

How the results depend on the processing

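Of 2520 refits of single genes (42 genes with MYC, 3 comparisons, 20 refits each), none turned the direction of a call, 35 ended a call and 27 made one. With no fold threshold, the genes called were 3880 higher and 4141 lower in MUT against WT, 938 and 1145 in SWP against WT and 4359 and 3585 in MUT against SWP, and the members 13 and 5, 12 and 1, and 5 and 7. With a log2 fold change beyond 1 the genes were 1085 and 563, 147 and 358, and 1262 and 461, and the members 2 and 1, 2 and 1, and 0 and 0. The cholesterol enzymes called higher were 9, 8 and 2 in the 3 comparisons with no fold threshold (1 lower in MUT against SWP), 2, 1 and 0 beyond 1, and 4 in SWP against WT without the trend, and leaving out 1 library gave 6 to 7, 3 to 7 and 0 to 1. With libraries scaled to equal totals 1 member was lower in MUT against WT. Leaving out 1 library at a time, members called higher and lower ranged from 7 to 9 and 1 to 3 in MUT against WT, 5 to 9 and 1 to 2 in SWP against WT (2 lower without WT replicate 1, with SREBF1 added), and 0 to 2 and 2 to 4 in MUT against SWP. Genes called ranged from 2018 to 2536 and 1771 to 2458, 344 to 561 and 482 to 768, and 2259 to 2729 and 1445 to 2055.

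With the replicate block, 1 member was higher in MUT against SWP (ABCG1) where none was without it. In MUT against WT the block added ABCG1 (8 members higher), and it changed no other member's call. In SWP against WT it lowered the adjusted p (limma) of the calls that other refits ended. HMGCS1 had 0.00976 in place of 0.0236 and IDI1 0.0119 in place of 0.0316. MSMO1 had 0.00425 in place of 0.0132 and SC5D 0.000386 in place of 0.0441. The causes of these changes were not tested, beyond the thresholds' own construction. ABCG1, with the lowest read counts, had an interval of 0.22 to 2.14 in MUT against WT, and there the block left its value at 1.18 with an adjusted p of 0.000486 in place of 0.0532. APOE, at a similar mean, had an SE of 0.18 beside 0.44 for ABCG1. The part of depth in these widths was not tested. Leaving out a library turned the sign of the ratio difference for INSIG1 to INSIG2 in SWP (-0.14 to 0.13) and FASN to SCD in MUT against SWP (-0.08 to 0.05), both near 0.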
